A study of Mus musculus with 4 samples.

Results

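The genes described are 9 regulators of mouse trophoblast stem cells: the transcription factors Eomes, Cdx2, Elf5, Esrrb, Tfap2c, Gata3 and Ets2, the surface protein gene Plet1 and the receptor gene Fgfr2. They were chosen by name, and every probe set that the platform's annotation pairs with one of these symbols, current or older, was taken. Each of the 9 genes had 1 probe set, and none of these probe sets listed a further gene. They are 9 of 19938 genes tested. The arrays held RNA of Dalton's lymphoma ascites (DLA), a mouse tumour passed from host to host and grown in suspension in the abdominal fluid. The 2 irradiated samples came from DLA-bearing Swiss mice whose whole body received 2 Gy of electrons on day 8 after transplantation, and the 2 control samples from DLA-bearing mice that were not irradiated. All hosts were male Swiss albino mice of 4 to 5 months, and ascites was harvested at 48 h from irradiation. The labels call the samples biological replicates but do not say whether a sample was 1 mouse or a pool, so the p-values measure only the spread between these samples. Host cells of the ascites fluid were not stated to have been removed, and fewer cells of a type and less RNA per cell cannot be told apart in such RNA.

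Trophoblast stem cells are the self-renewing cells of the early placental lineage. FGF4 from the neighbouring epiblast acts on FGFR2 in these cells and, through the MAP kinase pathway, keeps Cdx2, Eomes, Elf5 and Esrrb in use. These factors, with Tfap2c, Gata3 and Ets2, bind and activate each other's genes, and cells that lose the FGF signal leave the stem state and form giant cells or syncytial cells. Several of the same genes have other uses in the body: Eomes in natural killer (NK) and cytotoxic T cells, Gata3 in T cells and type 2 innate lymphoid cells, Cdx2 in the intestine, and Elf5 in mammary epithelium.

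Promoter windows from RefSeq (build GRCm38.p6) were at hand for 8 of the 9 genes, and those of the 3 genes whose difference after irradiation passed an unadjusted p of 0.05 are shown. Each is the 250 bases before the annotated start, 5′ to 3′ on the gene's strand, for Plet1 at chr9:50494275-50494524 (plus strand), Eomes at chr9:118477939-118478188 (plus strand) and Gata3 at chr2:9878601-9878850 (minus strand). Capitals mark matches to 1 of 7 motifs searched on both strands.
Plet1: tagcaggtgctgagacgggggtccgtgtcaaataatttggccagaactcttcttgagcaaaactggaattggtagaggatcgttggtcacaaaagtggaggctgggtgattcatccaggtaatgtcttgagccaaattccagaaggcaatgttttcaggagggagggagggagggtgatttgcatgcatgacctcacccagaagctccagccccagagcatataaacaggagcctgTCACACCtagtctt
Eomes: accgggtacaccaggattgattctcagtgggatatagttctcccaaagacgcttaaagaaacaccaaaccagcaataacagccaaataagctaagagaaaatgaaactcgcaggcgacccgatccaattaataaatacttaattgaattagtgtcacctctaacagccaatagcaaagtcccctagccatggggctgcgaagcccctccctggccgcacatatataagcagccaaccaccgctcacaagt
Gata3: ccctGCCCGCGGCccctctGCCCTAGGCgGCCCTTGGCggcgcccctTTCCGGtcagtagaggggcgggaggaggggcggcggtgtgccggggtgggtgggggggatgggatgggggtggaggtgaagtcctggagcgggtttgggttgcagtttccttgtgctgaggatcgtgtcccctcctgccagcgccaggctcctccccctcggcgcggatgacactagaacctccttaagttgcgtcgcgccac

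The T-box motif TCACACC, the kind of site EOMES binds, lay in the Plet1 window, with its first base 14 bases before the annotated start. The same letters were in 3.33% of all 32851 windows of this length, and among the 9 genes also in 1 of the 2 Elf5 windows. The Gata3 window held 3 matches to the AP-2 motif GCCNNNGGC, the kind of site TFAP2C binds (13.73% of windows held at least 1), and 1 match to the ETS motif CCGGAA (12.03%). The Cdx2 window also held an AP-2 match, and an Elf5 window a match to the TEAD motif GGAATG (12.64%). The GATA motif AGATAA (9.99% of windows), the CDX motif TTTATNG (9.81%) and the nuclear receptor motif AAGGTCA (4.08%) were in none of the windows of these genes. The Eomes window held no match to any of the 7 motifs. Some letters of a match can belong to more than 1 motif, and no match of one motif overlapped a match of another here. These are matches of letters, and binding was not measured.

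In control DLA cells, 6 of the 9 genes had clear signal and 3 were in the dim range. The reference for dim signal was a set of 1190 olfactory and vomeronasal receptor genes, which are not known to be used in such cells. Their median was 4.18 and their 95th percentile 5.91 (log2 intensity, mean of the control arrays), against a median of 6.715 for all 19938 genes. Probe sets differ in how strongly they bind, so a level shows where a gene lies against this dim range and not how it compares with another gene. Of all genes, 63.8% lay above the receptor genes' 95th percentile.

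Plet1, which encodes a surface protein that marks progenitors of the early placenta, measured 13.15 and 13.10 on the control arrays. That is above every receptor gene, and at percentile 99.6 of all tested genes. Eomes, a T-box factor needed to keep trophoblast stem cells, measured 10.02 and 9.95, also above every receptor gene, at percentile 89.1. Ets2, an ETS factor that acts downstream of FGF signalling in these cells, measured 9.15 and 9.02, and it too lay above every receptor gene. The control arrays lay within 0.13 of each other for these 3 genes.

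Gata3, a zinc finger factor of trophoblast and of T cells, measured 7.96 and 7.98 on the control arrays, above 99.8% of the receptor genes. Cdx2, the homeobox factor that sets the trophectoderm apart from the inner cell mass, measured 7.73 and 7.74, above 99.7% of them. Tfap2c, the gene of AP-2γ, measured 6.84 and 6.87, above 99.1% of the receptor genes and at percentile 52.0 of all genes. These 3 genes had the closest control pairs of the 9, within 0.03 of each other.

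Elf5, an ETS factor whose promoter is methylated in embryonic stem cells and open in trophoblast stem cells, measured 5.45 and 5.55. This is inside the dim range, above 89.3% of the receptor genes. Esrrb, an orphan nuclear receptor that acts downstream of FGF signalling, measured 4.99 and 4.79, above 75.1% of them. Fgfr2, the receptor through which FGF4 acts, measured 4.96 and 4.89, above 76.1% of them. For these 3 genes a low level and no expression cannot be told apart on these arrays. The share above the dim range, 6 of 9, is near the 63.8% of all genes. On the irradiated arrays the same 6 genes were above the receptor genes' 95th percentile of 5.91, and the same 3 below it.

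**Figure D1:**
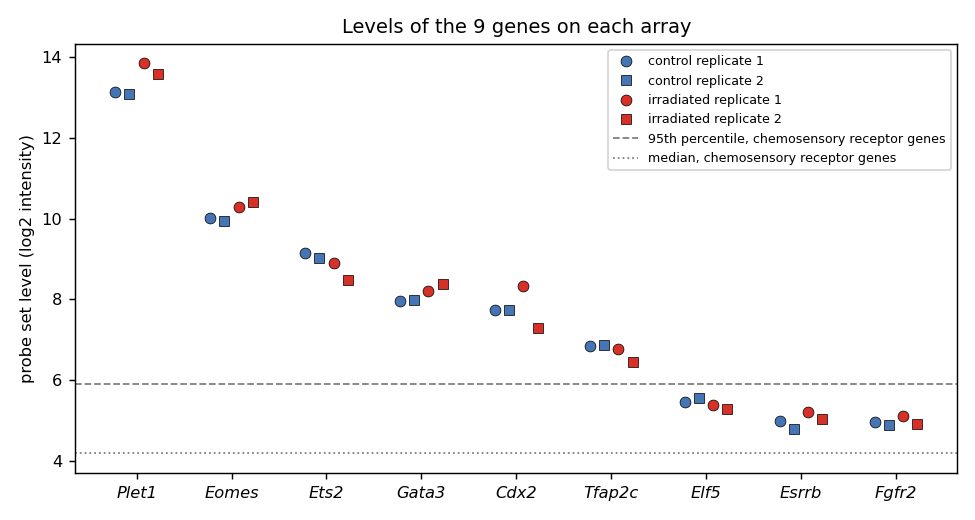
Log2 probe set intensity (vertical axis) of the 9 genes on each of the 4 arrays, with controls in blue and irradiated arrays in red, replicate 1 as circles and replicate 2 as squares. The lines give the median (4.18) and the 95th percentile (5.91) of 1190 chemosensory receptor genes in controls; Elf5, Esrrb and Fgfr2 lie below the upper line on all 4 arrays, and the arrays of Cdx2 stand farthest apart.

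The label calls the cells a lymphoma, so the lineages that use some of the 9 genes were examined by their markers. Of 17 measured T cell markers, 6 lay above the receptor genes' 95th percentile in controls, and Cd3d, Cd3g, Cd2, Cd4, Cd28, Rag1 and Rag2 did not. The 6 were Cd3e (6.23 and 6.35 on the control arrays), Thy1, Bcl11b, Cd5, Cd8a and Lat. The control means of Thy1, Bcl11b, Cd5 and Cd8a ran from 5.925 to 6.275, below the median of all genes. Lat, a T cell adaptor, was the brightest of the list at 9.26 and 9.08. Of 13 B cell markers Ebf1, Cd79b and Vpreb3 lay above that line, with control means of 6.385, 6.045 and 5.93, and Cd79a, Ms4a1 and Pax5 did not. Of 16 pan-leukocyte genes, 11 lay above that line in controls, where 63.8% of all genes did. The brightest was Lcp1, at 11.19 and 11.30 on the control arrays. Ptprc (CD45), the defining antigen of leukocytes, measured 5.63 on average and was in the dim range, as were 4 others of the 16.

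NK cells and innate lymphoid cells are among the host lymphocytes that use Eomes or Gata3. Apart from these 2 genes, 13 of the 15 measured markers of that list were in the dim range, among them Ncr1, Klrb1c, Klrd1, Gzma, Tbx21 and Nkg7. The 2 above it were Ccl5 and Prf1. Their summed linear intensity without Eomes and Gata3 was 590 to 597 in controls and 565 to 634 in irradiated arrays. Epithelial markers stood at the other end, where 13 of 15 lay above the receptor genes' 95th percentile. On the control arrays the simple epithelial keratin Krt8 measured 14.07 and 14.11, Krt18 13.45 and 13.38 and Epcam 9.54 and 9.48. Esrp1 and Cldn7 were in the dim range, and Cdh1 (control mean 6.19) lay below the median of all genes.

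**Figure D2:**
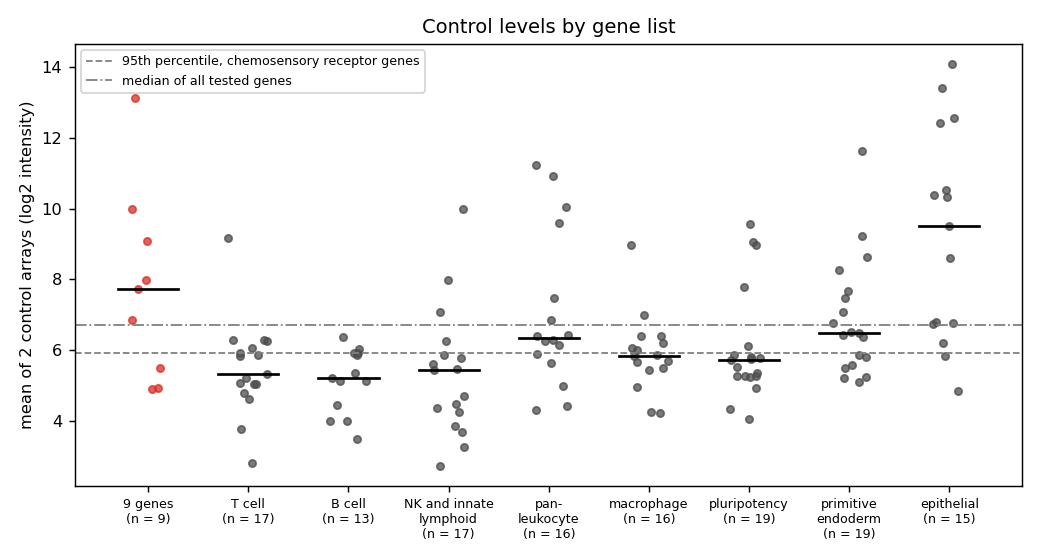
Mean log2 intensity on the 2 control arrays (vertical axis) of each gene in the set of 9 (red) and in marker lists of other cell types and lineages (grey), with the list median as a bar and the number of measured genes under each name. The dashed line is the 95th percentile of the chemosensory receptor genes (5.91); the T cell, B cell and NK bars lie below it, and the 2 highest points of the NK list are Eomes and Gata3.

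Other early embryonic lineages gave a further reference for the 9 genes. In the pluripotency list, 5 of 19 measured genes lay above the dim range in controls, and Pou5f1, Nanog and Sox2, the core factors of the inner cell mass and epiblast, did not. The 5 were Dppa4, Klf4, Klf2, Tbx3 and Tfcp2l1. In the primitive endoderm list, 12 of 19 lay above it. They included Gata4 and Foxa2, while Gata6 and Sox17 did not, and the brightest was Sparc, a matrix protein gene with wide use, at 11.67 and 11.61.

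Irradiated and control arrays were compared with limma, a linear model that pools the variance of all genes, with Benjamini-Hochberg adjusted p-values over all 19938 genes. With 2 arrays in each group, an exact permutation test of 1 gene cannot go below p = 0.333. None of the 9 genes passed an adjusted p of 0.05 in limma, a threshold that 0.00502% of all genes passed. An unadjusted p of 0.05 was passed by 3 of the 9, Plet1, Eomes and Gata3, all higher in irradiated cells, against 10.3% of all genes in either direction, 5.21% higher and 5.1% lower. With at least a 1.5-fold difference as well, 1 of the 9 remained, Plet1, which was higher, against 2.37% of all genes, 1.7% higher and 0.672% lower. At 2-fold 0 of the 9 remained, against 0.461% of all genes. The counts are small, and the 9 genes were chosen with earlier results of these arrays known.

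Plet1 measured 13.85 and 13.58 on the irradiated arrays against 13.15 and 13.10 on the controls. Both irradiated arrays lay above both controls, with the larger step on replicate 1. The log2 difference was 0.59 ± 0.14 (standard error), with a 95% interval from 0.25 to 0.93, a ratio of 1.51 (limma adjusted p = 0.364). On the 4 arrays it was the largest difference of the 9 genes, and 97.2% of all tested genes had a smaller one in either direction.

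Eomes measured 10.28 and 10.42 on the irradiated arrays against 10.02 and 9.95 on the controls. The groups did not overlap, and the irradiated arrays were 0.14 apart. The log2 difference was 0.365 ± 0.12 (standard error), with a 95% interval from 0.07 to 0.66 (limma adjusted p = 0.443), a ratio of 1.29.

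Gata3 measured 8.20 and 8.38 on the irradiated arrays against 7.96 and 7.98 on the controls, again without overlap. The log2 difference was 0.32 ± 0.12 (standard error), with a 95% interval from 0.01 to 0.63 (limma adjusted p = 0.477), a ratio of 1.25. With all 4 arrays, Gata3 no longer passed the unadjusted threshold in limma after quantile normalization or with the replicate number as a block. Lymphocyte genes were examined beside Eomes and Gata3. Tbx21, the T-box relative of Eomes in NK cells, measured 5.74 and 5.99 in controls and 5.69 and 5.24 in irradiated arrays, and Nkg7 measured 5.71 and 5.84 against 5.31 and 5.25. Both were in the dim range on average. The summed T cell markers were 1260 to 1344 in controls and 1074 to 1157 in irradiated arrays. Lat, the brightest of them, weighs most in these sums, at 9.26 and 9.08 in controls and 8.80 and 8.87 in irradiated arrays. Of the 17 T cell markers, 14 differences were negative and 3 positive, with a median of −0.14, where 55.4% of all genes had a negative one. Pan-leukocyte genes summed to 6839 to 7332 in controls and 8789 to 9396 in irradiated arrays, mostly through Lcp1 and Arhgdib, while the log2 differences of Srgn and Cd52 were −1.505 and −0.76. 

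Genes of host myeloid cells also differed between the groups. Of 14 neutrophil markers, 2 were higher and 7 lower at an unadjusted p of 0.05, against 5.21% and 5.1% of all genes, with a median of −0.565. Ly6g, a neutrophil surface antigen, measured 8.87 and 8.82 on the controls and 12.04 and 11.89 on the irradiated arrays and was the 1 gene past the adjusted threshold (limma adjusted p = 0.0117), while the log2 differences of Retnlg, Il1r2 and Cxcr2 were −2.60, −1.225 and −1.155. The summed neutrophil markers were 1688 to 1825 in controls and 4915 to 5690 in irradiated arrays. Without Ly6g they were 1220 and 1373 in controls and 1478 and 1120 in irradiated arrays. These sums still hold Mmp9, the other of the 2 higher markers. It measured 8.25 and 8.14 on the controls and 9.86 and 9.10 on the irradiated arrays, a log2 difference of 1.285. Of 16 macrophage markers, 2 were higher and 2 lower, among them the mannose receptor Mrc1 (0.90 higher) and Csf1r (0.52 lower), with sums of 1368 to 1395 in controls and 1368 to 1536 in irradiated arrays. The part of other cells in the differences of Plet1, Eomes and Gata3 was not tested.

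Ets2, Tfap2c and Elf5 were lower on both irradiated arrays than on both controls. Ets2 measured 8.91 and 8.47 against 9.15 and 9.02, a log2 difference of −0.395 ± 0.18 (standard error) and a 95% interval from −0.84 to 0.05 (limma adjusted p = 0.52). Tfap2c measured 6.78 and 6.45 against 6.84 and 6.87, a difference of −0.24 with an interval from −0.61 to 0.13. Elf5, in the dim range, measured 5.38 and 5.27 against 5.45 and 5.55, a difference of −0.175 with an interval from −0.47 to 0.12. For Ets2 and Tfap2c most of the difference lay on irradiated replicate 2, which was 0.615 and 0.405 below the control mean, against 0.175 and 0.075 for replicate 1. All 3 intervals include 0.

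Cdx2 was the gene on which the irradiated arrays parted. It measured 8.32 on irradiated replicate 1 and 7.28 on irradiated replicate 2, while the controls measured 7.73 and 7.74. One irradiated array was thus 0.585 above and the other 0.455 below the control mean. Their gap of 1.04 was wider than that of 99.0% of all genes between the same arrays, and the control gap of 0.01 was wider than that of 3.07%. The mean difference was 0.065 with a 95% interval from −0.77 to 0.90 (limma adjusted p = 0.961), so neither a rise nor a fall of Cdx2 was detectable, and a change of up to 0.77 downward or 0.90 upward lies inside the interval.

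By the smallest root mean square difference of mean-centred values over the 4 arrays, the genes with the pattern most like Cdx2 were Slc16a3, which encodes a lactate exporter, 3110053B16Rik, and Ereg, which encodes the growth factor epiregulin. Slc16a3 measured 9.53 and 9.50 on the controls and 10.04 and 9.10 on the irradiated arrays, with a root mean square difference of 0.038. Ereg measured 7.47 and 7.46 on the controls and 8.02 and 7.14 on the irradiated arrays (0.062), and the value for 3110053B16Rik was 0.056. Likeness over 4 arrays describes these arrays alone. The other 8 genes spanned less than 1 on the log2 scale over the 4 arrays, and no such search was made for them.

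Esrrb measured 5.21 and 5.04 on the irradiated arrays against 4.99 and 4.79 on the controls, without overlap, a log2 difference of 0.235 with a 95% interval from −0.10 to 0.57. Fgfr2 measured 5.10 and 4.92 against 4.96 and 4.89, with overlapping groups, a difference of 0.085 and an interval from −0.23 to 0.40. Both genes were in the dim range, where the deposited scale compresses differences. The widest change inside the Fgfr2 interval is 0.40 on the log2 scale.

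Over the 9 genes, 6 differences were positive and 3 negative, where 43.4% of all genes had a positive and 55.4% a negative one. The median was 0.085 on the log2 scale, against −0.03 for all 19938 genes. The groups did not overlap for 7 of the 9, with 4 higher and 3 lower in irradiated cells. Over all genes the groups did not overlap for 41.7%, 17.8% higher and 23.9% lower. The irradiated arrays were less alike than the controls over all genes, with an SD of their difference of 0.362 against 0.167. Taken over the 9 genes alone, that SD was 0.36 for the irradiated pair and 0.09 for the control pair. The Cdx2 gap of 1.04, the widest of the 9, weighs on the value for the irradiated pair. The median absolute gap of that pair was 0.18 over the 9 genes and 0.20 over all genes. For the control pair the medians were 0.07 and 0.10.

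Each array was also left out in turn, which leaves 1 array in a group, so only log2 differences of the 9 genes are given. Without control replicate 1 they were 0.615 for Plet1, 0.40 for Eomes and 0.31 for Gata3. Without control replicate 2 the same 3 genes gave 0.565, 0.33 and 0.33. Without irradiated replicate 1 they gave 0.455, 0.435 and 0.41, and Ets2, Tfap2c and Cdx2 gave −0.615, −0.405 and −0.455. Without irradiated replicate 2 Plet1, Eomes and Gata3 gave 0.725, 0.295 and 0.23. Ets2, Tfap2c and Cdx2 then gave −0.175, −0.075 and 0.585. With irradiated replicate 1 left out the median of the 9 was −0.005, and with replicate 2 left out it was 0.23.

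**Figure D3:**
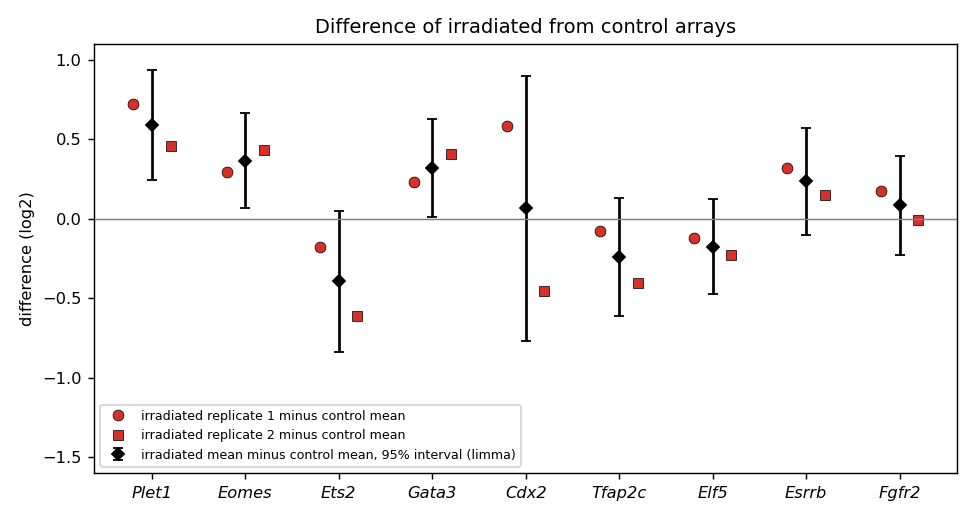
Log2 difference from the control mean (vertical axis) for each of the 9 genes: the irradiated mean (diamond, with its 95% limma interval) and each irradiated array (red circle for replicate 1, red square for replicate 2). The intervals of Plet1, Eomes and Gata3 lie above 0, and the irradiated arrays of Cdx2 lie on opposite sides of 0 (0.585 and −0.455).

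The signals that keep trophoblast stem cells were described by a list of 27 measured ligands, receptors and transducers. Of these, 1 was higher and 2 were lower at an unadjusted p of 0.05, against 5.21% and 5.1% of all genes. The adjusted threshold in limma was passed by 0, and the median difference was −0.07. Tgfb1, a ligand that can stand in for feeder cells in trophoblast stem cell culture, measured 9.70 on both controls and 10.11 and 10.32 on the irradiated arrays, a log2 difference of 0.515 (limma adjusted p = 0.373). Acvr2a, an activin receptor, measured 8.10 and 8.06 against 7.76 and 7.67, a difference of −0.365. The third, Fgf1, was in the dim range at 5.75 and 5.76 in controls and differed by −0.335.

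The FGF4 to FGFR2 axis was dim at both ends. Fgf4 itself had a control mean of 5.53, and Fgf2 and Fgf10 were also in the dim range. The other FGF receptors Fgfr1, Fgfr3 and Fgfr4 had control means of 6.46, 7.53 and 6.26, above it. The BMP, activin and Nodal side was mixed. Nodal, Tdgf1 and Pcsk6 were in the dim range, with control means of 5.765, 5.855 and 5.715. Inhbb (6.22) and Acvr2b (6.265) lay above that range but below the median of all genes. Clear signal came from Bmp4 at 8.54, Bmpr1a at 10.45 and Smad2 at 9.63. The brightest gene of the list was Smad3, at 11.24 and 11.10 on the control arrays. Smad3 measured 11.45 and 11.04 on the irradiated arrays, overlapping the controls.

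A list of 33 other measured regulators used in trophoblast stem cells held mainly transcription factors. It also held some chromatin and RNA-binding proteins and the receptor gene Notch1. Of these 33 genes, 26 lay above the dim range in controls, where 63.8% of all genes did. They included Tead4, the TEAD factor upstream of Cdx2, with a control mean of 10.23, its coactivators Yap1 (9.64) and Wwtr1 (9.37), Klf5 (11.06) and Tfap2a (9.93), while Sox2, a partner of Esrrb in these cells, was in the dim range at 5.28. At an unadjusted p of 0.05, 4 of the 33 were higher and 1 was lower, against 5.21% and 5.1% of all genes. The adjusted threshold in limma was passed by 0, and the median difference was 0.00. Sox21, an HMG-box factor, measured 8.04 and 8.12 in controls and 8.49 and 8.52 in irradiated arrays, a log2 difference of 0.425. Notch1, which encodes a receptor, was 0.405 higher, Id2, an inhibitor of basic helix-loop-helix factors, 0.56 higher and Nr2f2, an orphan nuclear receptor, 0.43 lower (limma adjusted p = 0.429, 0.46 and 0.447). The other of the 4 higher genes was Tfap2a, which is described with its family.

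Of 32 measured genes of trophoblast differentiation, 17 lay above the dim range in controls, where 63.8% of all genes did. Hand1, a factor of giant cells, had a control mean of 6.46, while Ascl2 and Tpbpa, of the spongiotrophoblast lineage, and Synb, of the syncytium, were in the dim range at 5.61, 3.88 and 5.61. The brightest was Phlda2, an imprinted growth regulator, at 9.88 and 10.27 on the controls and 10.23 and 10.03 on the irradiated arrays. In this list 1 gene was higher and 1 lower at an unadjusted p of 0.05, against 5.21% and 5.1% of all genes, and 0 passed the adjusted threshold in limma. Flt1, a VEGF receptor also made by trophoblast, was 0.455 higher, and Rhox6, a homeobox gene of placenta, was 0.33 lower (limma adjusted p = 0.425 and 0.481). The median was −0.03, the same as that of all genes.

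The 8 genes other than Plet1 belong to families, of which 27 measured paralogues were set beside them. Of these, 16 lay above the dim range in controls. Among T-box genes Tbr1 and Tbx21 did not, and among CDX genes Cdx1 (6.88) did and Cdx4 (3.25) did not. In the AP-2 family, Tfap2a measured 9.89 and 9.96 on the controls and 10.16 and 10.69 on the irradiated arrays, a log2 difference of 0.50 (limma adjusted p = 0.481), against −0.24 for Tfap2c. The 95% intervals of the pair are 0.01 to 0.99 and −0.61 to 0.13, and the difference between the genes was not tested. Among GATA genes Gata2, a trophoblast factor that acts beside Gata3, measured 7.72 on average in controls and 7.45 and 8.00 on the irradiated arrays, which lay on opposite sides of it. Of the 27 paralogues, 1 (Tfap2a) was higher and 0 lower at an unadjusted p of 0.05, against 5.21% and 5.1% of all genes. The adjusted threshold in limma was passed by 0, and the median was −0.075.

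In the pluripotency list 1 of 19 genes, Dppa3, was higher and 0 lower at an unadjusted p of 0.05, against 5.21% and 5.1% of all genes. Dppa3 encodes a maternal factor of germ cells and the early embryo and measured 5.10 and 4.78 on the controls and 5.34 and 5.91 on the irradiated arrays, none above the 95th percentile of the receptor genes. In the primitive endoderm list 0 of 19 passed that threshold in limma, and 0 passed the adjusted one. Its largest difference was that of Dab2, an endocytic adaptor, which measured 7.55 and 7.80 on the controls and 8.07 and 9.64 on the irradiated arrays, with replicate 2 far above replicate 1. The list medians were −0.075 and −0.08.

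**Figure D4:**
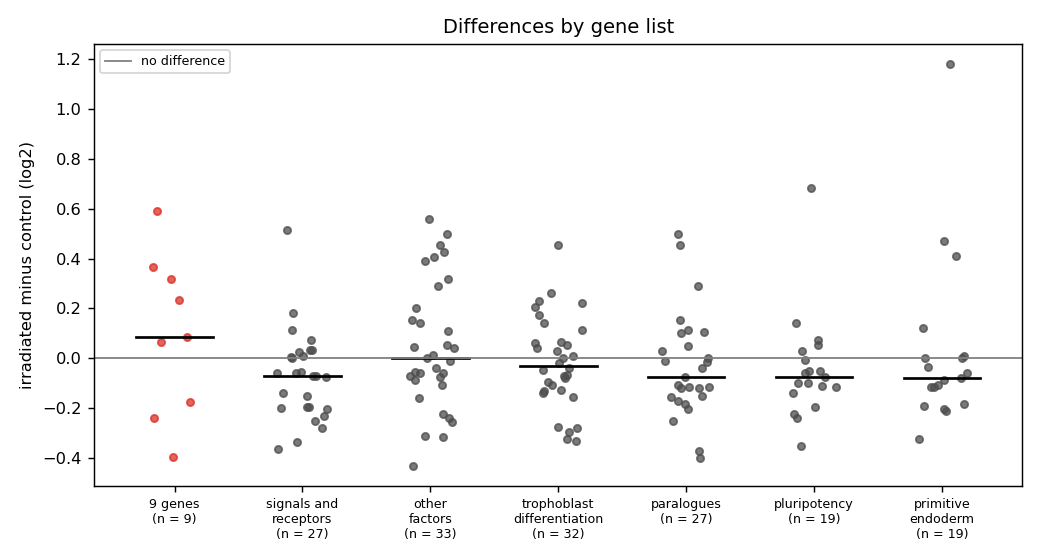
Log2 difference of irradiated from control arrays (vertical axis) for each measured gene of the set of 9 (red) and of 6 related lists (grey), with the list median as a bar and the number of genes under each name. The medians lie between −0.08 and 0.085, and the highest point is Dab2 of the primitive endoderm list.

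Of 15 epithelial markers, 4 were lower and 2 higher at an unadjusted p of 0.05, against 5.1% and 5.21% of all genes, and the median was −0.09. The 4 simple epithelial keratins of the list held most of its summed linear intensity, which was 45411 to 45834 in controls, 38787 on irradiated replicate 1 and 26778 on irradiated replicate 2. The keratins alone summed to 40099 and 39722 in controls and 32247 and 20330 in irradiated arrays, and the other 11 genes to 5735 and 5688 against 6541 and 6447. The list includes Krt7, at 12.48 and 12.36 on the controls and 11.84 and 10.62 on the irradiated arrays, Krt18 (0.60 lower on the log2 scale) and Epcam (0.61 lower), while Cldn4, a tight junction protein gene, was 0.44 higher. Among the 9 genes, irradiated replicate 2 was below replicate 1 for Cdx2 by 1.04, Ets2 by 0.44, Tfap2c by 0.33 and Plet1 by 0.27. Fgfr2, Esrrb and Elf5 were lower there by 0.18, 0.17 and 0.11, while Eomes and Gata3 were 0.14 and 0.18 higher. The Cdx2 gap was wider than that of 99.0% of all genes, and those of Ets2, Tfap2c and Plet1 than 82.5%, 70.6% and 61.8%. For Gata3, Fgfr2, Esrrb, Eomes and Elf5 these shares were 46.5%, 44.4%, 42.3%, 36.5% and 29.3%. How many of all genes were lower on replicate 2 was not counted. The part of this difference between the irradiated arrays in the results was not tested.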

How the data were processed

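RNA (300 ng a sample) was labelled with biotin and hybridised to one-colour arrays, per the labels' protocols. The authors deposited log2 intensities summarised per probe set by RMA, per the submitters' processing notes. Its version, build and annotation are not given in sources used here. RMA equalises the arrays and compresses dim differences. The table held 35556 probe sets on 4 arrays, with array medians of 6.43 to 6.46. Names came from the platform's annotation and were updated through RefSeq identifiers (GRCm38.p6). Of the probe sets, 21789 had 1 symbol, 1621 several and 12146 were not listed. Of 999 genes with several probe sets the brightest was taken, leaving 19938 genes. Groups were compared with limma 3.58.1 in R 4.3.3 (lmFit, eBayes, two-sided, Benjamini-Hochberg over all genes, threshold 0.05, 2 residual and 3.48 prior degrees of freedom), tested on simulated data. The number of arrays limits the precision. Batches were not known.

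The 9 genes and all lists were chosen with earlier results of these data known. Of 318 list entries, 292 matched a tested gene. Genes that could be named from each list were up to 4 with the smallest p and the brightest. Not all were, and the mesothelial and erythroid lists are given only in the closing section. Mmp9 was named beyond these, as the other higher neutrophil marker. List genes named for their control level alone were chosen after their values were seen. Lists were described by counts and medians. Alternatives were filters on dim genes, normalization, probe set choice, variance model, replicate block and leaving out each array. The last was added for the lists after the data were seen. Replicate numbers were not treated as pairs in the main fit, and whether they pair the samples is not known.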

Additional observations from a re-analysis of the deposited data

How the results depend on the processing

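As in the main fit, 0 of the 9 genes passed an adjusted p of 0.05 in limma in each other setting with all 4 arrays. In these settings 2 to 3 passed an unadjusted p of 0.05. Gata3 was the gene lost, after quantile normalization and under the replicate block. Filters, probe set choice, variance model and replicate block leave the difference of each of the 9 genes as it was. Only normalization and leaving out an array could reverse one. Of 112 recomputed differences of single genes, 110 kept their direction. The exceptions came without irradiated replicate 1, where Cdx2 was −0.455 and Fgfr2 −0.005, against 0.585 and 0.175 without irradiated replicate 2. The cause was not tested. The count of all genes past the adjusted threshold was 1, and 6 over all annotated probe sets. With the replicate number as a block it was 0, as in each fit of 3 arrays. With no gene of the arrays past it, the count of 0 of the 9 genes past the adjusted threshold was fixed under that block, where 2 passed the unadjusted threshold. Deviations of same-numbered arrays correlated at 0.068. With 2 arrays in a group the deviations mirror each other, so this value cannot show whether the numbers pair the samples. All genes past an unadjusted p numbered 2055, and 381, 410, 5924 and 3046 without control replicates 1 and 2 and irradiated replicates 1 and 2; with 1.5-fold 473, and 315, 338, 1558 and 560. A 2-fold threshold left 0 of the 9 genes. The median of the 9 ran from −0.005 to 0.23, and 6 genes stayed above the dim range with either control array or with the median of all genes as reference. The filter at the 25th percentile removed Esrrb and Fgfr2, and the filter at the median Elf5 as well. With irradiated replicate 1 or 2 left out, list medians were −0.19 and 0.01 for pluripotency, −0.115 and 0.06 for primitive endoderm, −0.115 and 0.005 for paralogues and −0.06 and 0.11 for other factors. Signal near background limits Elf5, Esrrb and Fgfr2.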

Other observations

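Marker lists not described above had these values, where 5.21% of all genes were higher and 5.1% lower at an unadjusted p of 0.05. Of 13 mesothelial markers, which share Krt8, Krt18 and Krt19 with the epithelial list, 2 were higher (log2 differences of 0.485 for Muc16 and 0.63 for Bnc1) and 2 lower (−0.60 for Krt18 and −0.865 for Krt19) at an unadjusted p of 0.05, with a median of −0.10. Of 5 measured erythroid markers, 0 were higher and 2 lower at that threshold in limma (−0.695 for Alas2 and −0.32 for Klf1), with a median of −0.105, and 0 passed the adjusted threshold.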
